A study of Mus musculus with 16 samples.

Results

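Interferon-stimulated genes are the transcripts that cells raise when interferon receptors on their surface are engaged, and 40 of them were followed in mouse dorsal skin in which the docking protein Gab1 was targeted in keratinocytes. Members were taken by name: every probe whose platform gene symbol was one of the 40, among 16593 genes that the array names. That gave 63 of the 25697 probes on the array, covering 38 of the 40 genes. Ifi44 and Gbp6 were matched by no probe and are not analysed here. Of the 63 probes, 43 for 31 genes were above background on at least 7 of the 16 arrays and were tested among 14504 probes in all.

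The arrays are single-colour Illumina bead arrays, 7 of them labelled K14-cre; Gab1fl and 9 labelled control, all from 15-day-old mice of a mixed C57/BL6;129Ola strain. K14-cre drives Cre recombinase from the keratin 14 promoter, so recombination is directed at basal keratinocytes and their descendants and not at leukocytes or vessels. The labels do not say whether control mice carried the Cre transgene or the floxed allele. The series' design text speaks of sorted integrin alpha 6-positive cells, whereas each array's tissue label reads dorsal skin. Transcripts of basal keratinocytes (7 of 7 listed markers tested), of fibroblasts (8 of 8) and of endothelium (8 of 10) were all above background.

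Shared RNA between arrays is not stated in the labels, but within each labelled group the arrays fell into sets by their correlation over all tested probes. Arrays of a set correlated at 0.9945 to 0.9963, and arrays of different sets at no more than 0.9864 within a group and 0.9645 between groups. Each set was averaged and counted as 1 source, which gave 3 control sources of 3 arrays each and 2 mutant sources of 3 and 4 arrays. Whether a source is 1 mouse or a pool is not given, so p-values measure the spread between sources. Gab1 itself read 12.69, 12.69 and 12.68 in control sources 1, 2 and 3 and 11.34 and 11.97 in mutant sources 1 and 2 on the log2 scale, below every control. Eif2s3y, a gene of the Y chromosome, read 4.78 in mutant source 2, against at least 9.14 elsewhere. Contrasts of mutant source 2 with the other sources therefore coincide with this difference, and the part of sex in them was not tested.

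Type I and type III interferons signal through receptor-bound Jak kinases to a complex that holds Stat2 and Irf9 and binds the interferon-stimulated response element (ISRE). Interferon gamma acts at the gamma-activated site (GAS) and induces Irf1, a further activator. The induced proteins sense foreign RNA, block viral replication, attack vacuoles that hold pathogens, present peptides on MHC class I and damp the response again. In skin, keratinocytes, resident macrophages and dendritic cells all respond to interferon, and a basal level of these transcripts is present without infection.

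The promoters of the genes were read for these elements. Windows from 250 bases before to 50 bases after each annotated start (RefSeq, GRCm38.p6) were matched for 33 of the 40 genes and searched on both strands for the letters GAAANNGAA (the ISRE core) and TTCNNNGAA (GAS). The ISRE letters stood in 19 of the 33 genes (57.6%), against 2638 of 27025 genes in the whole table (9.76%). By window the shares were 47.5% and 8.56%. The GAS letters stood in 10 of 33 (30.3%), against 9.55% of all genes. Both occurred in 4 genes, and in 2 promoters the ISRE and GAS matches overlapped one another. The windows below belong to genes whose values are described next and to Ifit1, which was above background on no array. Each has 20 flanking bases on either side of the matches. Capitals mark the ISRE letters, and in Irf1 the GAS letters. A match read on the opposite strand appears as its reverse complement.
Isg15, chr4:156200856-156200916, minus strand: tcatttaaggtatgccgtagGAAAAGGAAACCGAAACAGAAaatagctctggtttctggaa
Ifit3, chr19:34583354-34583455, plus strand: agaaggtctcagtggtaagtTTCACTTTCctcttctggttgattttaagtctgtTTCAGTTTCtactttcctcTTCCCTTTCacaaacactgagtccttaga
Ifit1, chr19:34640760-34640833, plus strand: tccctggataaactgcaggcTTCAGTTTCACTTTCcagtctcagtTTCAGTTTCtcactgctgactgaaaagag
Oas1g, chr5:120887597-120887651, minus strand: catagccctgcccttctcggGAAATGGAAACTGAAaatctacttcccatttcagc
Rsad2, chr12:26456543-26456591, minus strand: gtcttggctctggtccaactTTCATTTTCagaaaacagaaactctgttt
Cxcl10, chr5:92349074-92349122, minus strand: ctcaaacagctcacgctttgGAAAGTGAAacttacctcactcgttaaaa
Gbp2, chr3:142620585-142620633, plus strand: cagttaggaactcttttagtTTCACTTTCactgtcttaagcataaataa
Gbp3, chr3:142559980-142560034, plus strand: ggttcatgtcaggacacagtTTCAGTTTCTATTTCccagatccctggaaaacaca
Igtp, chr11:58199502-58199550, plus strand: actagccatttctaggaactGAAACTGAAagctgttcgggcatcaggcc
Ddx58, chr4:40239794-40239842, minus strand: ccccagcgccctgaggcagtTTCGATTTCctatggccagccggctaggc
Irf1, chr11:53769904-53769952, plus strand: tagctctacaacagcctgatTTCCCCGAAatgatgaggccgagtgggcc

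In Isg15, 3 overlapping matches began 78 to 66 bases before the annotated start. Ifit1 and Ifit3 held 3 matches each, and Oas1g and Gbp3 held 2 overlapping ones. The first match in Rsad2 lay 119 bases, in Cxcl10 213 bases and in Gbp2 58 bases before the start. Oasl1, Oasl2, Irf9 and Ifit2 held no ISRE letters in these windows.

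Mutant skin was first compared with control skin. None of the 43 member probes passed limma's test at an adjusted p of 0.05, against 0.0552% of all probes tested. The smallest adjusted p among member probes was 0.343. At an unadjusted p below 0.05, 3 member probes (2 genes, Ddx58 and Irf1, by their brightest probe, and the second probe of Irf9) stood against 12.1% of all probes. By the brightest probe of each gene, 18 genes were higher and 13 lower in the mutant, and the median log2 difference was 0.05, beside 0.02 over all tested probes. Differences ran from -1.02 to 0.68.

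Ranges of the sources were read in the same way. Both mutant sources lay above all controls for 2 of the 31 genes (Ddx58 and Irf9; 15.8% of all probes) and below all controls for 4 (Irf1, Irf7, Mx2 and Ifi35; 14% of all probes). For 10 genes both mutant sources lay inside the span of the 3 controls, which held for 8.83% of all probes. The counts outside the control range were thus no larger than the background shares.

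**Figure D1:**
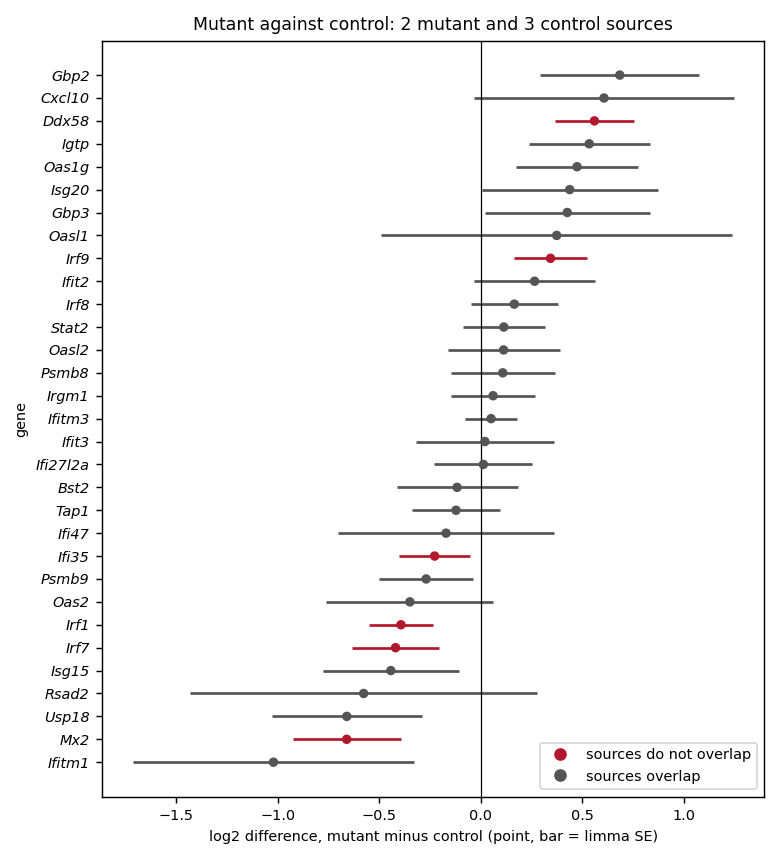
Log2 difference of mutant minus control for the 31 tested interferon-stimulated genes (x axis; genes on the y axis), as point with the standard error of the limma fit over 2 mutant and 3 control sources; red marks the 6 genes whose sources do not overlap. The points run from -1.02 for Ifitm1 to 0.68 for Gbp2, and none passed the adjusted threshold.

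Among the RNA sensors and transcription factors, 6 of 8 genes were tested and none passed. Ddx58, which encodes the cytoplasmic RNA sensor RIG-I, read 6.70, 6.84 and 7.06 in control sources 1, 2 and 3 and 7.45 and 7.40 in mutant sources 1 and 2 (log2 signal). Both mutant sources were above all controls, but single arrays overlapped (mutant 7.05 to 7.67, control 6.54 to 7.23). The difference was 0.56 (SE 0.20, 1.47-fold) with a limma adjusted p of 0.362, and the exact two-sided permutation test over 5 sources gave 0.1, the smallest value that 10 splits allow. Without background correction the difference was 0.29.

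Irf9, the DNA-binding subunit that joins Stat2, was also above the controls in both mutant sources. It read 9.98, 10.07 and 10.11 in the controls and 10.21 and 10.58 in the mutants, a difference of 0.34 (SE 0.18, limma adjusted p = 0.532), and every mutant array (10.17 to 10.68) lay above every control array (9.93 to 10.15). The second Irf9 probe differed in the same direction by 0.55 (limma adjusted p = 0.343). Stat2 itself differed by 0.11 (SE 0.20, limma adjusted p = 0.877), with both mutant sources inside the control range of 8.06 to 8.39.

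Irf1 and Irf7 leaned the other way. Irf1, the activator whose promoter carries the GAS shown above, read 13.82, 13.93 and 14.23 in the controls and 13.66 and 13.53 in the mutants. Single arrays did not overlap, at 13.45 to 13.69 in the mutant and 13.78 to 14.34 in the control, and the difference was -0.39 (SE 0.16, 0.761-fold, limma adjusted p = 0.409). The other 4 Irf1 probes gave differences from -0.30 to -0.0026, with overlapping sources. Irf7, which amplifies type I interferon production, differed by -0.42 (SE 0.21, limma adjusted p = 0.514) near the background, from 6.51 ± 0.23 (SD, n = 3) to 6.09 ± 0.19 (SD, n = 2). Irf8, a factor of myeloid and dendritic cells, differed by 0.16 with overlapping sources. Of the sensors not tested, Ifih1 (MDA5) was above background on no array, and Trim25, the ubiquitin ligase that activates RIG-I, on 1 mutant and 3 control arrays.

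The ISG15 system was lower in mutant source 1 than anywhere else. Isg15, a ubiquitin-like modifier, read 9.07, 9.52 and 9.98 in the controls and 8.79 and 9.36 in the mutants. Usp18, the protease that removes ISG15 and dampens receptor signalling, read 9.64, 10.10 and 10.24 in the controls and 8.80 and 9.86 in the mutants. Mutant source 2 lay within the control range for both genes, so the differences of -0.44 (SE 0.34, limma adjusted p = 0.673) and -0.66 (SE 0.37, limma adjusted p = 0.557) rested on 1 source. All 3 Usp18 probes gave the same sign.

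In the Ifit and Oas families, whose products bind viral RNA or make the 2-5A messenger that activates RNase L, 6 of 9 genes were tested. Oas1g differed by 0.47 (SE 0.30, limma adjusted p = 0.605), reading 6.10, 6.72 and 6.94 in the controls and 7.22 and 6.91 in the mutants. Ifit2 and Ifit3 had both mutant sources inside the control range by their brightest probes. Ifit2 differed by 0.26 (SE 0.30), and by 0.56 (SE 0.35, limma adjusted p = 0.605) at its second probe, where mutant source 2 was level with the highest control at 7.42. Ifit3 differed by 0.02 (SE 0.34). Oas2, above background on 2 of the 7 mutant and 5 of the 9 control arrays, differed by -0.35 (SE 0.41).

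Oasl1 and Oasl2, 2'-5' synthetase-like proteins, were the remaining tested genes of these families. Oasl1 read 6.46, 8.70 and 9.22 in the controls and 8.01 and 8.99 in the mutants, so that the control sources alone spanned the widest range of any member. Its mutant difference of 0.37 had an SE of 0.87. Oasl2 differed by 0.11. Ifit1, Oas1a and Oas3 were above background on no array. Probe sequences were not used here, so signal shared between near-identical copies such as Oas1a and Oas1g was not tested.

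Other antiviral effectors showed no common direction, with 2 genes positive and 4 negative. Mx2, a dynamin-like GTPase that traps viral components, read 6.97, 6.87 and 7.50 in the controls and 6.27 and 6.63 in the mutants. Both mutant sources were below all controls, and the difference was -0.66 (SE 0.27, 0.632-fold, limma adjusted p = 0.414). Single arrays overlapped, at 6.06 to 6.95 in the mutant and 6.74 to 7.57 in the control, and the difference was -0.31 without background correction. Mx1, which is defective in many laboratory mouse strains, was above background on no array.

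Rsad2 (viperin), an enzyme that makes a chain-terminating nucleotide, read 7.45, 9.12 and 10.17 in the controls and 7.67 and 9.00 in the mutants, inside the control span. Isg20, a nuclease, differed by 0.44 (SE 0.43), through mutant source 2 at 7.27 beside 5.81 to 6.47 in the other sources. Bst2 (tetherin), which holds budding virus at the membrane, differed by -0.12 (SE 0.30).

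Ifitm3, a membrane protein that blocks viral entry, was nearly level at 14.79, 14.88 and 15.13 in the controls and 15.01 and 14.97 in the mutants. Ifitm1, of the same family, had the opposite control order to most of the list, at 8.08, 7.01 and 5.77 in the controls and 6.35 and 5.51 in the mutants. It was above background on 7 of the 9 control and 3 of the 7 mutant arrays and differed by -1.02 (SE 0.69, limma adjusted p = 0.630). That probe entered the test through the control arrays, and its other 2 probes, above background on 1 control array each and on 4 and 5 mutant arrays, were not tested and lay the other way. One read 5.13, 5.66 and 5.59 in the controls and 5.95 and 5.73 in the mutants. The other read 5.61, 5.44 and 5.57 in the controls and 6.18 and 5.91 in the mutants. The probes of Ifitm1 thus disagreed in direction. The descending control order of the tested Ifitm1 probe stood in 34.6% of all tested probes. It was also found in all 7 tested T lymphocyte markers, given below, and in 4 of 8 fibroblast markers, the other 4 of which ascended.

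**Figure D2:**
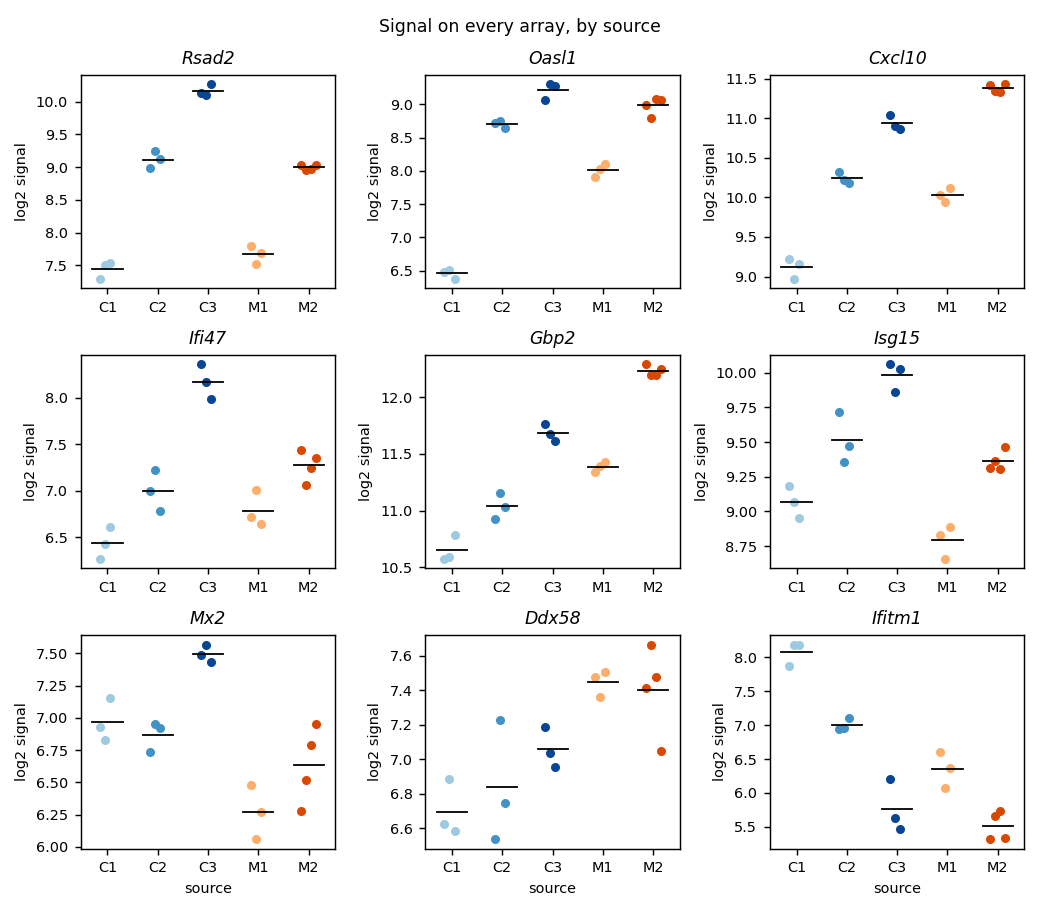
Log2 signal (y axis) on every array for 9 interferon-stimulated genes, by source (x axis; C1 to C3 control sources, M1 and M2 mutant sources); points are arrays and bars their mean. Rsad2, Oasl1, Cxcl10 and Ifi47 climb from C1 to C3 while arrays of a source stay together, and Ifitm1 descends.

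The interferon-inducible GTPases guard against pathogens in vacuoles, and 5 of 7 were tested, with 4 positive differences. Gbp2 read 10.65, 11.04 and 11.69 in the controls and 11.39 and 12.23 in the mutants, a difference of 0.68 (SE 0.39, 1.61-fold, limma adjusted p = 0.566). Igtp read 9.00, 9.29 and 9.73 in the controls and 9.59 and 10.16 in the mutants, a difference of 0.53 (SE 0.30, limma adjusted p = 0.555). Gbp3 differed by 0.43 (SE 0.41) and its second probe by 0.34. In all 3 genes mutant source 2 was the highest of the 5 sources, while mutant source 1 lay within the controls.

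Ifi47 read 6.43, 7.00 and 8.17 in the controls and 6.78 and 7.27 in the mutants. Irgm1 differed by 0.06 (SE 0.21), and its probes disagreed over the controls. The brighter one read 14.20 in control source 1 and 13.74 in control source 3, and the dimmer one stood at 7.98 and 8.74 in the same sources. Iigp1 was above background on no array.

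Among the antigen processing genes, Psmb8 and Tap1 had both mutant sources inside the control span, and Psmb9 had mutant source 2 below it. Psmb8 and Psmb9, the catalytic subunits of the immunoproteasome, differed by 0.11 (SE 0.26, limma adjusted p = 0.916) and -0.27 (SE 0.23, limma adjusted p = 0.713), and the peptide transporter Tap1 by -0.12 (SE 0.22, limma adjusted p = 0.877). Of the remaining genes, Cxcl10, the chemokine that draws Cxcr3-bearing lymphocytes, read 9.12, 10.24 and 10.94 in the controls and 10.03 and 11.38 in the mutants, and its difference of 0.61 had an SE of 0.64. Ifi35 read 8.58, 8.69 and 8.72 in the controls and 8.41 and 8.46 in the mutants (difference -0.23, SE 0.17, limma adjusted p = 0.675), and Ifi27l2a differed by 0.01 (SE 0.24).

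The controls themselves were ordered. In 26 of the 31 genes the signal stood in the order control source 1, then 2, then 3, an order seen in 29.1% of all tested probes. Control source 3 was above control source 1 in 28 genes, with a median log2 difference of 0.60 beside -0.03 over all probes. In 24 genes every array of control source 3 lay above every array of control source 1 (28.7% of all probes), and in 2 genes, Ifitm1 and Irgm1, every array lay below (32.6%). This order was found in the data and carries no test, and the genes of a shared response are not independent of one another.

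The size of the step varied by gene. Oasl1 was 6.77-fold, Rsad2 6.59-fold, Cxcl10 3.53-fold and Ifi47 3.34-fold higher in control source 3 than in control source 1. These 4 were singled out after their values were seen. Oas2 (2.25-fold, near background), Gbp3 (2.17-fold), Gbp2 (2.05-fold), Ifit3 (2.02-fold) and Isg15 (1.89-fold) followed, whereas Irf9 (1.10-fold), Ifi35 (1.11-fold) and Irf8 (1.18-fold) differed little. The 13 tested genes with ISRE letters in the promoter window had a median step of 0.84, with a range from -0.46 to 2.72, and the 14 without had 0.46, with a range from -2.31 to 2.76. The 2 ranges largely coincide.

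**Figure D3:**
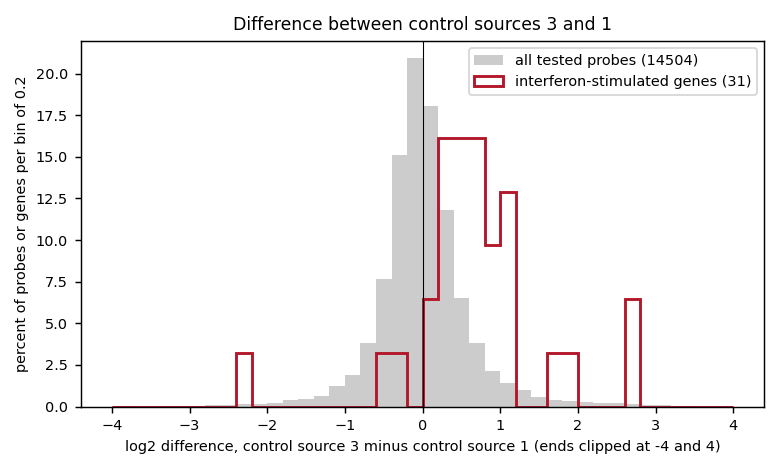
Distribution of the log2 difference between control source 3 and control source 1 (x axis) as the percent of probes or genes per bin (y axis), for all 14504 tested probes in grey and the 31 interferon-stimulated genes in red. The red outline is centred at a median of 0.60 and the grey one at -0.03.

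The spread between control sources was larger than that between arrays of a source. The median SD of a member gene was 0.34 over the 3 control sources and 0.12 between arrays of a source, whereas over all tested probes the values were 0.16 and 0.11. In the mutants the median SD over the 2 sources was 0.34, beside 0.30 over all probes. Control source 3 was the highest of the 5 sources in 18 member genes and control source 1 the lowest in 19, while control source 3 was highest in 19.2% and control source 1 lowest in 15.6% of all probes. The order held in 21 of 31 genes on slide 1 (26.5% of all probes) and in 27 on slide 2 (28.7%).

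**Figure D4:**
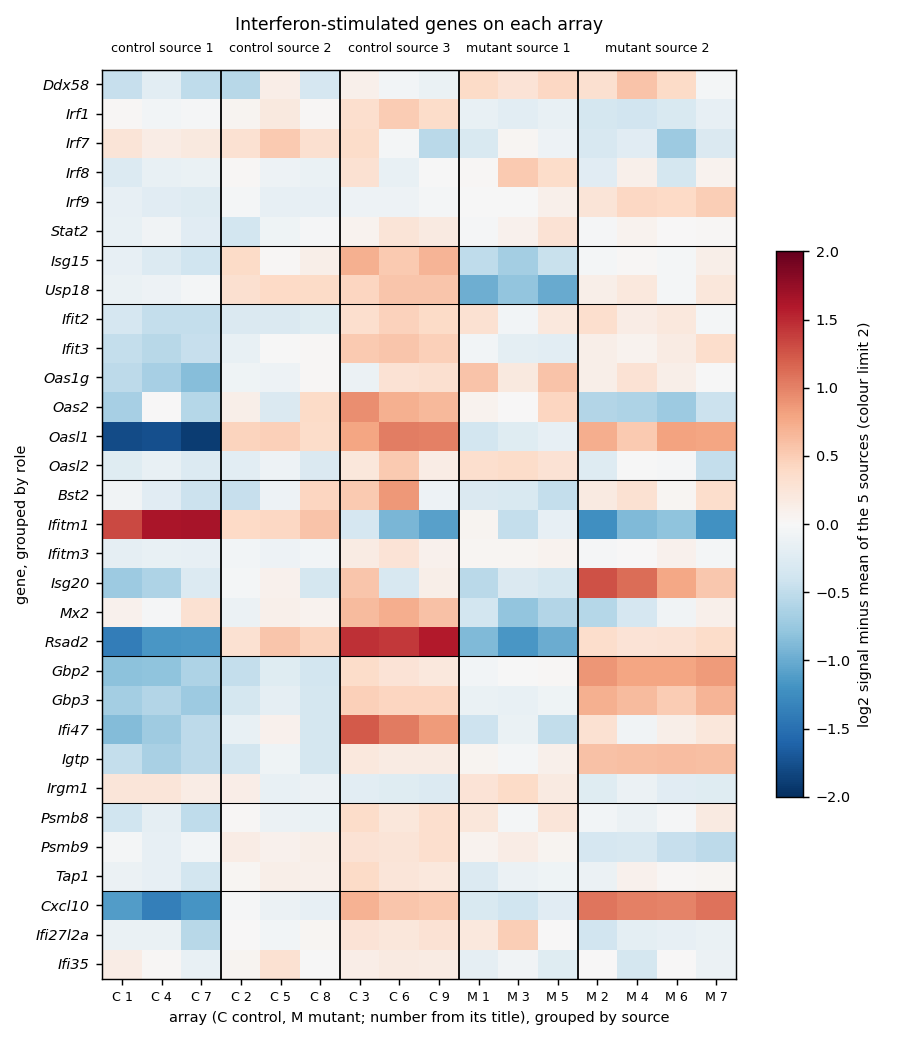
Log2 signal of the 31 tested genes (rows, grouped by role) on the 16 arrays (columns, grouped by source), each relative to the gene's mean over the 5 sources, on a colour scale limited to 2 in either direction. Control source 1 is mostly blue and control source 3 mostly red, and arrays of a source share their colours.

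Leaving out single control sources moved the mutant difference. Without control source 1 the median member difference was -0.12, with 2 genes above and 9 below all remaining controls. Without control source 3 it was 0.22, with 11 above and 5 below. Without mutant source 2 it was -0.02, and without mutant source 1 it was 0.03. The sign of the list's median thus depended on which sources were present. Shares over all probes were not computed for the counts above and below the controls in these fits. With fewer sources a lack of overlap is easier to reach for any probe.

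Immune and vessel markers differed between the same sources. All 9 tested macrophage markers of 12 listed stood in the order control source 1, 2, 3. Their summed log2 signal was 12.18, 13.94 and 14.54 in the controls and 14.81 and 12.82 in the mutants. That sum is weighted to bright markers such as Lyz2, at 12.52 in control source 3 and 13.64 in mutant source 1. The list median, relative to each gene's mean, was instead higher in control source 3 (1.02) than in mutant source 1 (0.83). C1qa, C1qb and C1qc (complement of resident macrophages) and Mrc1 were above background on every array. All 7 tested T and cytotoxic lymphocyte markers of 11 stood in the reverse order (34.6% of all probes). Their median step from control source 1 to 3 was -1.69 and their median mutant difference -2.53. Their summed signal, 14.60, 14.06 and 13.87 in the controls and 13.71 and 13.45 in the mutants, was mostly that of Thy1, which other cells express too. Cd3g, a chain of the T cell receptor complex, read 11.35, 10.28 and 9.56 in the controls and 8.51 and 6.70 in the mutants. Endothelial markers (8 of 10 tested) summed to 15.06, 15.28 and 15.98 in the controls and 14.62 and 14.46 in the mutants. Of these 8, 7 stood in the order control source 1, 2, 3 (29.1% of all probes), with a median step of 1.03. Both mutant sources lay below all controls for 6 of the 7 T lymphocyte and 6 of the 8 endothelial markers (14% of all probes). At an unadjusted p below 0.05 stood 5 and 6 of them (12.1% of all probes), and none passed the adjusted threshold in limma. Cd3d, Cd3e, Nkg7, Ctsw and Cd2 were above background on all 9 control arrays but on only 3 to 6 mutant arrays. They entered the test through the control arrays, where their means were higher, so their part in the T lymphocyte counts is not independent of the filter. Cd3g and Thy1 were above background on every array.

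Among leukocyte markers at large, 6 of 7 were tested, 4 of them in the order control source 1, 2, 3, and Ptprc was above background on no array. Cd207, the langerin of Langerhans cells, and Clec10a were above background on every array and stood in that order, Cd207 at 8.63, 9.61 and 9.88 in the controls and 8.06 and 9.91 in the mutants. Itgax, Flt3 and Clec9a, of the same dendritic cell list, were above background on no array. Of the plasmacytoid dendritic cell list, 2 of 6 were tested, and Ccr9, Cox6a2 and Klk1 were above background on no array. The tested genes, Siglech and Upb1, were above background on every array and went opposite ways. Siglech differed by -0.71 (SE 0.26, limma adjusted p = 0.383), with both mutant sources below all controls (14% of all probes). Upb1 differed by 1.26 (SE 0.28, limma adjusted p = 0.257), with both above all controls (15.8% of all probes). Mutant source 2 exceeded mutant source 1 in 17 of 31 members (47.1% of all probes) and in 0 of 9 macrophage markers. The count was also 0 of 6 for leukocyte markers at large and 0 of 7 for T and cytotoxic lymphocyte markers, whereas Cd207 was higher in mutant source 2. In such bulk RNA fewer cells of a type and less RNA per cell cannot be told apart, and the part of these cells in the members' order was not tested.

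**Figure D5:**
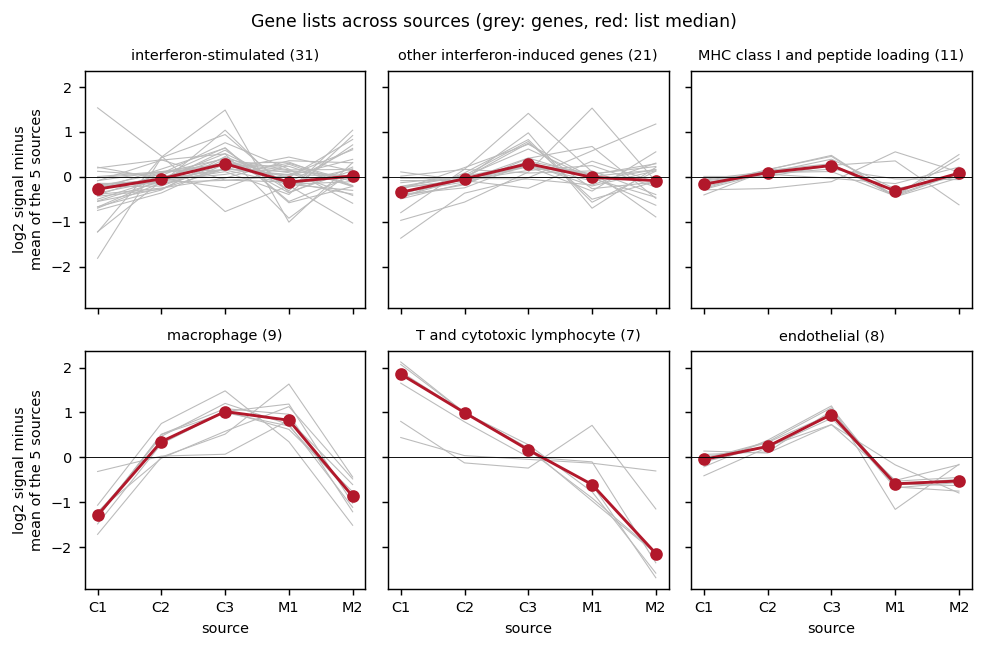
Log2 signal relative to each gene's mean over the 5 sources (y axis) for 6 gene lists, by source (x axis; C1 to C3 control, M1 and M2 mutant); grey lines are genes, red points the list median, and the number of genes stands in each title. All list medians except that of T lymphocytes climb from C1 to C3, the T lymphocyte median descends throughout, and the macrophage median drops from M1 to M2.

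Genes upstream of the members were examined with the same fit, and none of these lists held a gene past the threshold. Of 17 interferon ligand genes with a probe, 4 were tested. Ifna6 was above background on all 16 arrays and Ifna1 on 3 mutant and 7 control arrays, with differences of -0.06 (SE 0.21) and -0.01 (SE 0.17). Ifng and 8 further Ifna genes were above background on no array. Ifnk, the keratinocyte interferon kappa, differed by -0.97 (SE 0.72, limma adjusted p = 0.664), reading 8.46, 9.65 and 8.44 in the controls and 6.81 and 8.95 in the mutants. Ifnz was above background on 7 control arrays and on no mutant array (6.00 ± 0.23, SD, n = 3, and 5.68 ± 0.14, SD, n = 2). Its probe entered the test through the control arrays alone, so its lower mutant value is not independent of the filter. Neither ligand followed the order of the control sources.

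Receptors and kinases were measured at 8 of 9 genes, with 1 higher and 2 lower without overlap (15.8% and 14% of all probes). Ifngr1, the ligand-binding chain of the interferon gamma receptor, differed by -0.82 (SE 0.34, 10.65 ± 0.34 to 9.83 ± 0.62, limma adjusted p = 0.425), and the kinase Tyk2 by -0.43 (SE 0.19, limma adjusted p = 0.450). Among the other Stat and Irf factors Stat3 and Irf5 differed by -0.25 and -0.26, and among 8 tested nucleic acid sensing genes Myd88 and Tbk1 by -0.22 and 0.21, with overlapping sources.

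Of 7 tested negative regulators, Socs3, an inhibitor of Jak kinases, differed by -0.48 (SE 0.16, 14.09 ± 0.19 to 13.61 ± 0.19, limma adjusted p = 0.347). Pias1, a SUMO ligase that restrains cytokine signalling, differed by 0.45 (SE 0.17, limma adjusted p = 0.390). Without overlap between mutant and control sources, 2 of the 7 were higher (Pias1, and Irf2bp1 by 0.18) and 1 lower (Socs3). The shares over all probes were 15.8% and 14%.

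A separate list of 42 further interferon-induced genes, none of them members, was read in the same way. Of its 21 tested genes none passed, 1 had an unadjusted p below 0.05 in limma (12.1% of all probes), and the median mutant difference was 0.02. That gene was Ccl5, a chemokine of T cells and other leukocytes. It read 6.48 ± 0.70 (SD, n = 3) in the control and 7.94 ± 0.42 (SD, n = 2) in the mutant (limma adjusted p = 0.330). Ccl5 was above background on all 7 mutant arrays and on 6 of the 9 control arrays. The control arrays alone did not reach the 7 arrays of the filter, so its higher mutant value is not independent of the filter. Cxcl9, a partner of Cxcl10, differed by 1.19 (SE 0.57, limma adjusted p = 0.483). The order control source 1, 2, 3 was found in 18 of the 21 genes (29.1% of all probes), and their median step from source 1 to 3 was 0.75.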

How the data were processed

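RNA labelled as dorsal skin was hybridised to 16 Illumina arrays on 2 slides, both holding both groups. The deposited raw table holds an intensity per probe and array, with a deposited detection p-value beside each. The submitters' processing notes name GenomeStudio, with its version and the genome build not given in the sources used here. The authors' second table holds normalized intensity, which differed from the quantile-normalized raw signal by a median of 0.00648%.

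The raw signals went through limma 3.58.1 (R 4.3.3), with neqc background correction (offset 16), quantile normalization, log2. Probes with detection p below 0.05 on at least 7 arrays were kept. Arrays of one labelled group correlating above 0.99 were averaged into sources. The fit was lmFit and eBayes with an intensity trend over all 14504 probes, with Benjamini-Hochberg adjustment at 0.05. It was tested on simulated data. Gene symbols came from the platform annotation (23978 of 25697 probes named), with list symbols also matched through gene identifiers. The brightest tested probe stood for a gene. Raw array medians were 175.9 to 223.5, and 13406 to 14636 probes were detected per array. The number of sources limits the precision. Values by source were given for up to 3 genes of each role with the smallest p, for the smallest difference and for non-overlapping genes (25 genes). Other genes were added after their values were seen. The members, lists and design were chosen with earlier results of these data known.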

Additional observations from a re-analysis of the deposited data

How the results depend on the processing

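The count of member probes past the threshold was 0 in every alternative with sources as samples, in each of 16 fits without one array and in each of 5 without one source, but 15 when the 16 arrays were taken as separate samples and 11 with the title number as a replicate block. Over all probes those fits called 4914 and 3395, against 8; slide as a block called 331 and source as a random block 883. The numbers did not pair arrays (correlations of -0.386 to 0.418, 2 of 7 arrays closest to their own number). Taken over single arrays, 1 gene was higher and 1 lower with no overlap, in these fits and with source as a random block. With slide as a block 1 gene was lower, and on slide 2 alone 2, against 4. Across left-out arrays or sources the higher count ran from 2 to 11 and the lower from 3 to 9 (6 or 7 higher and 7 lower without either mutant source). Shares over all probes were not computed for these alternatives, so the changes in count cannot be read as particular to the members.

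Differences near 0 changed sign: Ifit3 to -0.0033 with 75th percentile scaling and -0.018 with cyclic loess; Ifi27l2a to -0.014 with cyclic loess, -0.020 on slide 1 and -0.020 with separate arrays; Psmb8 to -0.033 on slide 1; Irgm1 to -0.023 with the replicate block. With arrays or sources left out, Cxcl10 ran from -0.069 to 1.28, Ifi27l2a from -0.21 to 0.24, Ifit3 from -0.23 to 0.28, Ifitm3 from -0.023 to 0.15, Irgm1 from -0.18 to 0.30, Isg20 from -0.22 to 1.10, Oas2 from -0.73 to 0.030 and Psmb8 from -0.052 to 0.28. The cause was not tested. The other 17 of 25 named genes kept their sign, but not their size: leaving out some source moved 20 of the 25 differences by over 1.5 times, for example Gbp2 (0.26 to 1.11), Gbp3 (0.05 to 0.80) and Usp18 (-1.19 to -0.13). Without background correction 10 of 25 moved as much, all toward 0, among them Ifitm1 (-0.50), Irf7 (-0.17), Oas1g (0.22), Isg20 (0.21), Oas2 (-0.14) and Ifit2 (0.16), and the authors' table moved 10 as well. The control step, chosen after seeing the data, was 0.41 without background correction and at most 0.65, and its gene count 21 to 30.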

Other observations

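Genes of MHC class I and peptide loading outside the members showed the same order in the controls with smaller steps. Of 11 tested genes 9 stood in the order control source 1, 2, 3 (29.1% of all probes), with a median step of 0.32. Tap2, the partner of Tap1, differed between mutant and control by -0.39 (SE 0.26, limma adjusted p = 0.616). Calr, a chaperone of class I loading, was higher in both mutant sources than in all controls (15.8% of all probes). It differed by 0.55 (SE 0.20, limma adjusted p = 0.372), from 10.19 ± 0.10 (SD, n = 3) to 10.74 ± 0.32 (SD, n = 2). None of the 11 passed the adjusted threshold, and 1 had an unadjusted p below 0.05 in limma (12.1% of all probes).

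Suprabasal keratinocyte markers differed between sources as well. All 4 tested genes were higher in mutant source 2 than in mutant source 1, with a median log2 step of 2.50. In the controls 3 of the 4 stood in the order control source 1, 2, 3, and the median step from source 1 to 3 was 1.14. Ivl, of the cornified envelope, read 10.54, 11.14 and 11.24 in the controls and 8.11 and 11.69 in the mutants, and Lor read 9.08, 10.61 and 11.70 in the controls and 9.46 and 12.16 in the mutants. Krt1 read 11.13, 12.31 and 12.71 in the controls and 11.49 and 13.78 in the mutants. Krt10 varied less, from 15.13 to 16.02. Basal keratinocyte markers summed to between 17.39 and 17.59 in all 5 sources. That sum is weighted to the brightest markers, such as Krt14 at 15.94 to 16.04. Trp63 varied as little, from 14.00 to 14.17. Krt15 varied more, from 14.56 in mutant source 1 to 15.38 in control source 3, as did Itga6, from 9.54 in mutant source 1 to 10.37 in mutant source 2.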
